A study of Ciona robusta with 133 samples.

Results

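A7.4 and a7.10 are blastomeres of the 64-cell embryo of the ascidian Ciona robusta, a tunicate whose cell divisions follow an invariant pattern. They were compared here because each is the cell that was collected for the neural side of its lineage. The groups were formed from the cell type named in the labels, and no measured value was used to choose them. Together they hold 15 of the 133 single-cell libraries of the series, which make 12 of its 87 embryo samples once libraries of the same cell type and embryo are summed. A7.4 was represented by 7 libraries from 4 embryos, numbered 2 to 5. Embryo 2 gave a left cell, and embryos 3, 4 and 5 gave the left and the right cell. a7.10 was represented by 8 libraries from 8 embryos, all of the right side. The labels give no treatment, genotype or strain for any group, and every library is a cell dissected by hand. The groups differ in cell type, in embryo set, in the sides sampled and in the libraries summed per embryo. Nothing in the labels says that an A-line embryo and an a-line embryo with the same number are the same embryo. At 64 cells lineage and embryo set therefore cannot be told apart.

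In the ascidian fate map, names with a capital A mark the anterior vegetal lineage and those with a lower-case a the anterior animal lineage. A7.4 is a daughter of A6.2 and the sister of A7.3. A7.4 contributes to the posterior brain and the nerve cord, and A7.3 forms notochord. a7.10 is a daughter of a6.5 and contributes to the anterior brain and palps. FGF signals from vegetal cells are known to induce the neural fate of a6.5, while its animal neighbours, the a7.11 lineage among them, form epidermis. A7.2, a daughter of A6.1, forms endoderm. A7.3, A7.2 and a7.11 are used below as partner cells: A7.2 and A7.3 came from the same 4 embryos as A7.4, and a7.11 from 6 of the 8 embryos that gave a7.10.

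The measurement was RNA abundance per gene model, as read counts from amplified single-cell cDNA. Total counts ranged from 5923731 to 8292909 per A7.4 library and from 5319386 to 10980249 per a7.10 library. Between 10470 and 11450 gene models had a count in an A7.4 library, and between 10528 and 11059 in an a7.10 library. The tests used sums per embryo, which were deeper in A7.4 wherever both sides were summed. An A7.4 embryo held 6519364 to 15674622 counts, with a count in 11131 to 12251 gene models. Each a7.10 embryo was a single library. Levels are given in CPM, read counts scaled to a common total of the library after TMM normalization, per embryo. CPM is a share of the library, so RNA content per cell was not measured. The gene models carry KH identifiers, the deposited files do not pair them with gene names, and 0 of 15287 identifiers matched the reference gene table. Marker genes of nerve cord, anterior neural tissue, notochord, endoderm and epidermis, and genes of the FGF, ephrin, Nodal, BMP, Notch and Wnt pathways, could not be looked up for that reason. The cell types are therefore those of the labels, unchecked against markers, and no comparison names more than 2 identifiers in each direction.

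A7.4 and a7.10 differed mainly by modest changes in abundant genes. A second group of sparse genes, whose size depended on the fit, had few or no counts in a7.10. At an adjusted p below 0.05, 1244 of the 11645 genes tested differed (10.7%), of which 794 (6.82%) had the higher level in A7.4 and 450 (3.86%) in a7.10. The median log2 fold change over all genes tested was 0.03. Of the 794 genes, 414 differed by at most 2-fold, at median levels of 231 CPM (A7.4) and 140 CPM (a7.10). Another 137 differed by 2- to 4-fold, with medians of 81.8 and 31.2 CPM. A further 40 differed by 4- to 16-fold, with medians of 27.2 and 4.78 CPM. The remaining 203 differed by more than 16-fold. In A7.4 their median level was 4.74 CPM, and 167 of them lay below 20 CPM.

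In this fit, genes higher in a7.10 held fewer such large differences. Of the 450, 210 differed by at most 2-fold (medians of 181 CPM for a7.10 and 108 CPM for A7.4) and 185 by 2- to 4-fold (91.4 and 37.5 CPM). Another 24 differed by 4- to 16-fold (69.9 and 11.8 CPM). The remaining 31 differed by more than 16-fold, where the median of a7.10 was 12.8 CPM and that of A7.4 was 0.141 CPM. The balance between the directions varied with the level. Among genes averaging 1 to 5 CPM over the 64-cell embryos, 98 of 1912 were higher in A7.4 and 12 were higher in a7.10. Among genes averaging 20 to 100 CPM, 197 of 3805 were higher in A7.4 and 201 were higher in a7.10. Above 100 CPM, 377 of 3404 were higher in A7.4 and 210 in a7.10.

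**Figure D1:**
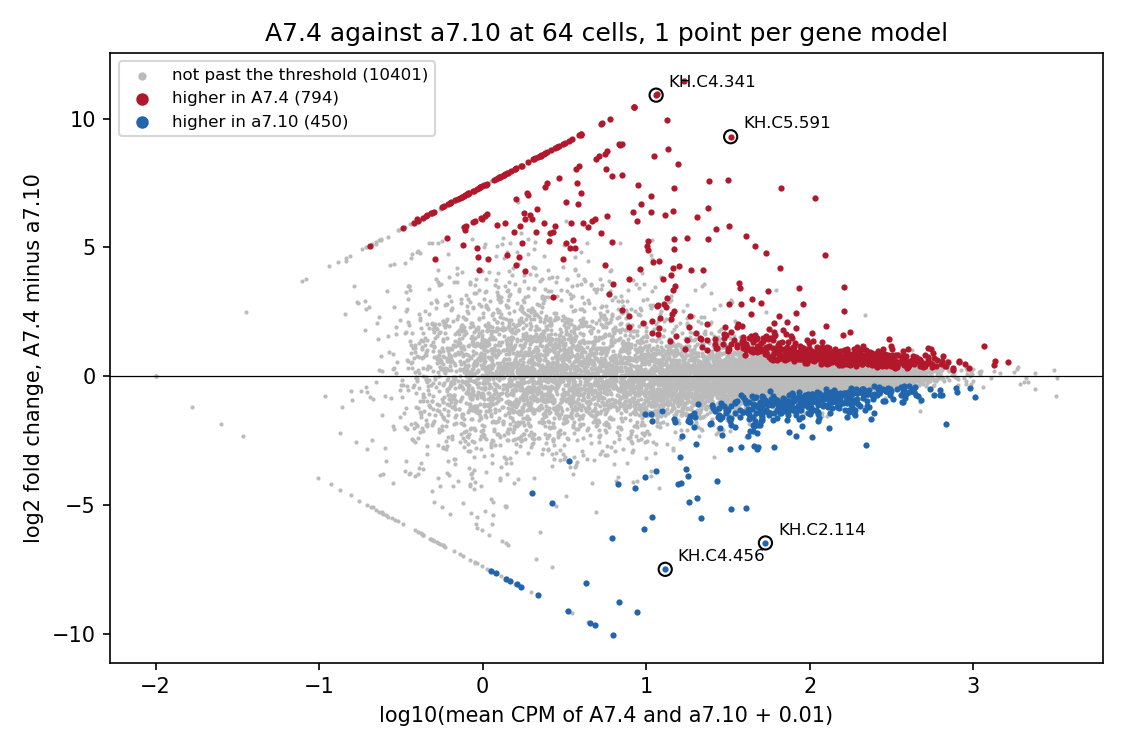
The vertical axis is the log2 fold change, A7.4 minus a7.10, and the horizontal axis is log10 of the mean CPM of both groups plus 0.01, with 1 point per gene model. The 794 genes higher in A7.4 (red) form a band of small changes at high levels and a cloud of more than 16-fold changes at low levels, while the 450 genes higher in a7.10 (blue) lie mostly in the band.

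The 4 A7.4 embryos all lay above the 8 a7.10 embryos for 396 of the 794 genes, against 4.39% of all genes tested. For the other direction the figure was 262 of the 450 genes, against 3.16% of all genes tested. Among genes over 16-fold, the groups did not overlap for 66 of the 203 higher in A7.4 and 15 of the 31 higher in a7.10. Together the 794 genes took 13.5 to 14.8% of the CPM of an A7.4 embryo and 8.11 to 8.77% of an a7.10 embryo. The 450 genes took 7.26 to 7.62% of an a7.10 embryo and 3.88 to 4.26% of an A7.4 embryo. Since these genes were picked for this difference, those sums describe its size in the library and do not test it. The same holds for the counts of genes without overlap. The number of genes was 722 without A7.4 embryo 5, and 810 when right-side libraries alone were used, which leaves 3 A7.4 embryos. The more than 16-fold class depended on the fit: with A7.4 and a7.10 alone in the model it held 56 genes higher in A7.4 in place of 203, and with the embryo number as a block it held 98.

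KH.C4.341 and KH.C5.591 had the largest fold changes among genes of at least 20 CPM whose groups did not overlap. In A7.4, KH.C4.341 had 18.7 CPM for embryo 2, 2.15 in embryo 3, 28.6 in embryo 4 and 42.3 in embryo 5. It had no count in any of the 8 a7.10 embryos. Its mean in A7.4, 23.0 ± 16.9 CPM (SD, n = 4), was at least 494-fold higher than the floor of 3 counts over the a7.10 group (adjusted p = 0.00341). The low embryo 3 value came from the left cell at 4.23 CPM of its library, and the right cell of that embryo had no count. In the partner cells, A7.3 of embryos 2, 3, 4 and 5 stood at 14.0, 2.99, 0 and 1.64 CPM, a range that overlapped that of A7.4, A7.2 had 8.73 CPM in embryo 2 and no count in the other 3, and a7.11 had 0.820 CPM in embryo 6 and no count in the other 5.

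In A7.4, KH.C5.591 had 1.08 CPM for embryo 2, 54.2 in embryo 3, 90.7 in embryo 4 and 116 in embryo 5. In a7.10 it had no count in 6 embryos, 0.581 CPM in embryo 3 and 0.121 CPM in embryo 6. The groups did not overlap, but A7.4 embryo 2 was close to the a7.10 values. On the log2 scale A7.4 was higher by 9.30 ± 1.53 (SE, adjusted p = 0.00029). The same embryo was low in the partner cells as well. In A7.3, KH.C5.591 had no count in embryo 2 and stood at 61.5, 108 and 43.8 CPM in embryos 3, 4 and 5. In A7.2 it had no count in embryo 2 and stood at 48.3, 91.5 and 37.6 CPM in those embryos. Within the A line, embryo 2 lay below the other 3 embryos in all 3 cell types, and the ranges of the cell types overlapped.

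Of the genes higher in a7.10, the rule took KH.C4.456 and KH.C2.114. KH.C4.456 had no count in A7.4 embryos 2 and 3, and 0.129 and 0.343 CPM in embryos 4 and 5. In a7.10 its lowest value was 0.546 CPM in embryo 5, its median 26.4 and its highest 44.5 CPM. The groups did not overlap, although a7.10 embryo 5 lay just above the highest A7.4 value (log2 fold change -7.50 ± 1.50 SE, adjusted p = 0.00206). In a7.11 the gene ran from 16.8 to 32.3 CPM, embryo 5 included. It had no count in A7.2, and in A7.3 it had 3.68 CPM in embryo 2 and no count elsewhere.

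KH.C2.114 was absent or low in every A-line embryo and high in every a-line embryo of this stage. In A7.4 it stood at 0, 2.31, 1.87 and 0.275 CPM in embryos 2 to 5. In a7.10 the lowest, median and highest values were 65.9, 113 and 129 CPM. The difference A7.4 minus a7.10 was -6.47 ± 0.66 on the log2 scale (SE, adjusted p = 4.02e-07). The range was 69.9 to 147 CPM in a7.11, 0.143 to 1.56 CPM in A7.3 and 0.500 to 3.01 CPM in A7.2, so this gene divided the 5 cell types by lineage with a wide gap.

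**Figure D2:**
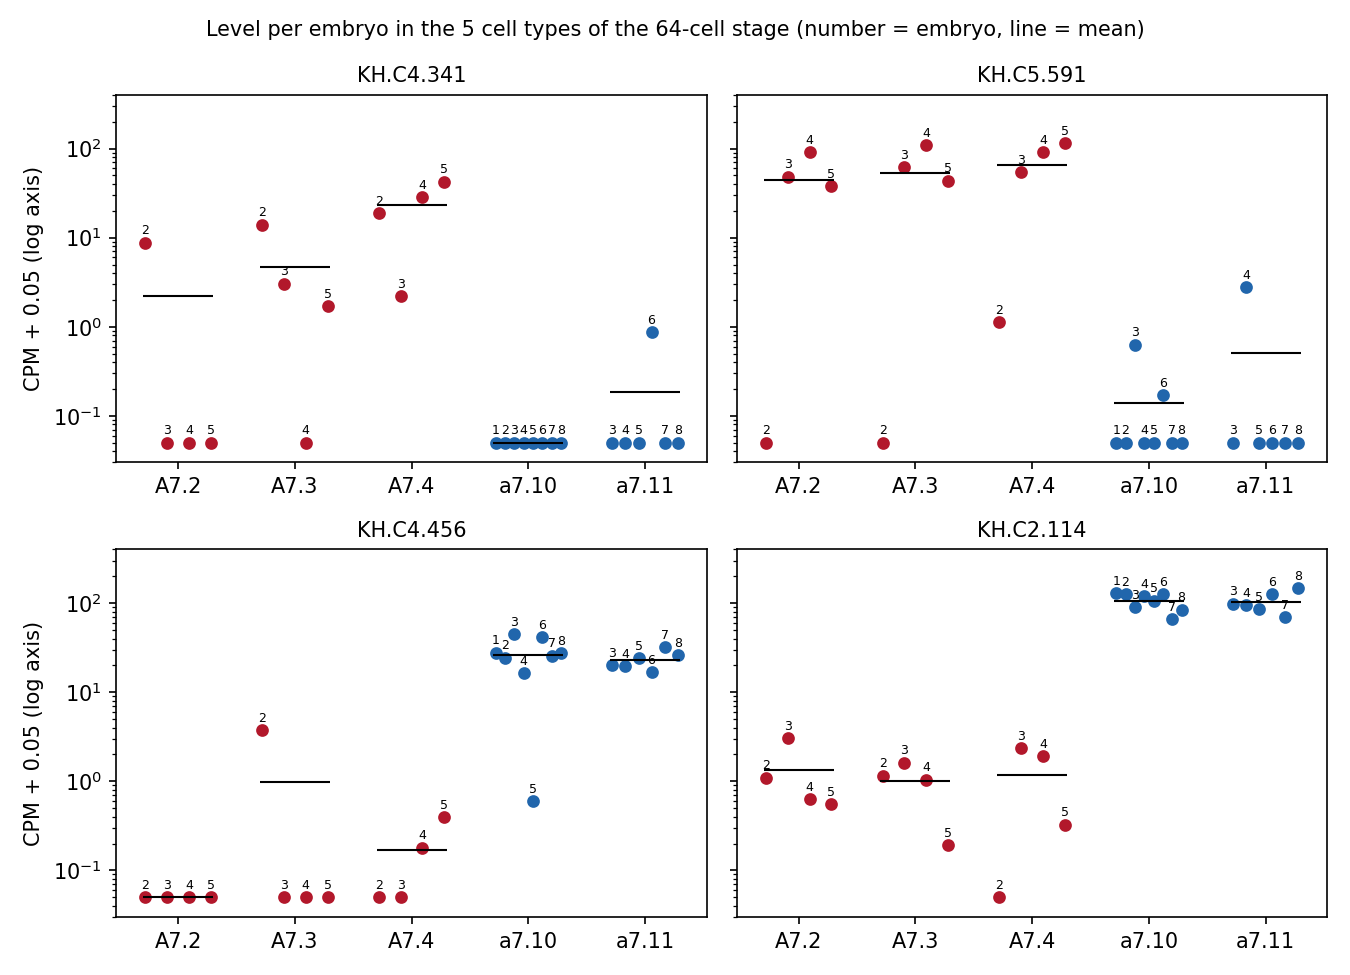
Each panel gives 1 gene, with CPM plus 0.05 on a log axis, the 5 cell types of the 64-cell stage along the horizontal axis, 1 point per embryo numbered as in the labels and a line at the mean. KH.C2.114 divides A-line (red) from a-line cells (blue) in every embryo, while KH.C5.591 is at or near 0 in all 3 A-line cell types of embryo 2 and between 37.6 and 116 CPM in the A-line cells of embryos 3, 4 and 5.

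The 203 genes more than 16-fold higher in A7.4 were scattered over embryos. 90 of them had no count in a7.10, so that their fold change is known only as a lower bound. With those set to the bound given by 3 counts over the a7.10 group, 200 of the 203 remained above 16-fold. 85 of the 203 had a count in each of the 4 A7.4 embryos, and 41 had a count in at most 2. For 122 genes (60.1%), 1 embryo held more of the summed A7.4 CPM than the other 3 together. The 31 genes of the other direction were spread more evenly over 8 embryos: 18 had a count in all 8, and 2 drew more than the rest together from 1 embryo. The number of embryos differs between the groups, so these shares are not directly comparable.

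Library by library, the detection of the 203 genes was read across cell types and stages. An A7.4 library had a count for 61.6 to 77.3% of the 203 genes and an a7.10 library for 12.3 to 22.2%, which the choice of genes fixed. The other cell types of the 64-cell stage, which shared the fit that chose these genes but were not in the contrast, had medians between those of a7.10 and A7.4. The ranges were 44.8 to 59.6% in A7.3, 50.2 to 68.5% in A7.2 and 24.6 to 32.0% in a7.11. At the other stages, a6.5, the mother cell of a7.10, had a count for 48.8 to 61.6%, A6.2 for 49.8 to 57.1%, a5.3 for 38.4 to 57.6%, and the 112-cell a8.19 for 35.0 to 38.4%. No library of another cell type, apart from 1 A6.1 library at 19.2%, was as low as the highest a7.10 library. The genes were chosen for low levels in a7.10, so its low rank was built in and is not a test. Over all genes tested the shares were alike: 86.8 to 90.4% in a7.10, 88.0 to 89.8% in a7.11 and 86.3 to 92.3% in A7.4. When each library was thinned to 2000000 counts, a7.10 stood at 7.88 to 16.3%, a7.11 at 16.3 to 25.6%, a6.5 at 40.9 to 53.7% and A7.4 at 60.1 to 72.4%.

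The 31 genes of the opposite direction had a count in 83.9 to 100% of cases in an a7.10 library. In an A7.4 library it was 22.6 to 41.9%, and the choice of genes again fixed this difference. a7.11 again lay close to a7.10, at 77.4 to 90.3%. A7.3 had the same range as A7.4, 22.6 to 41.9%. At the 32-cell stage a6.5 had 51.6 to 71.0% and A6.2 had 32.3 to 61.3%.

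**Figure D3:**
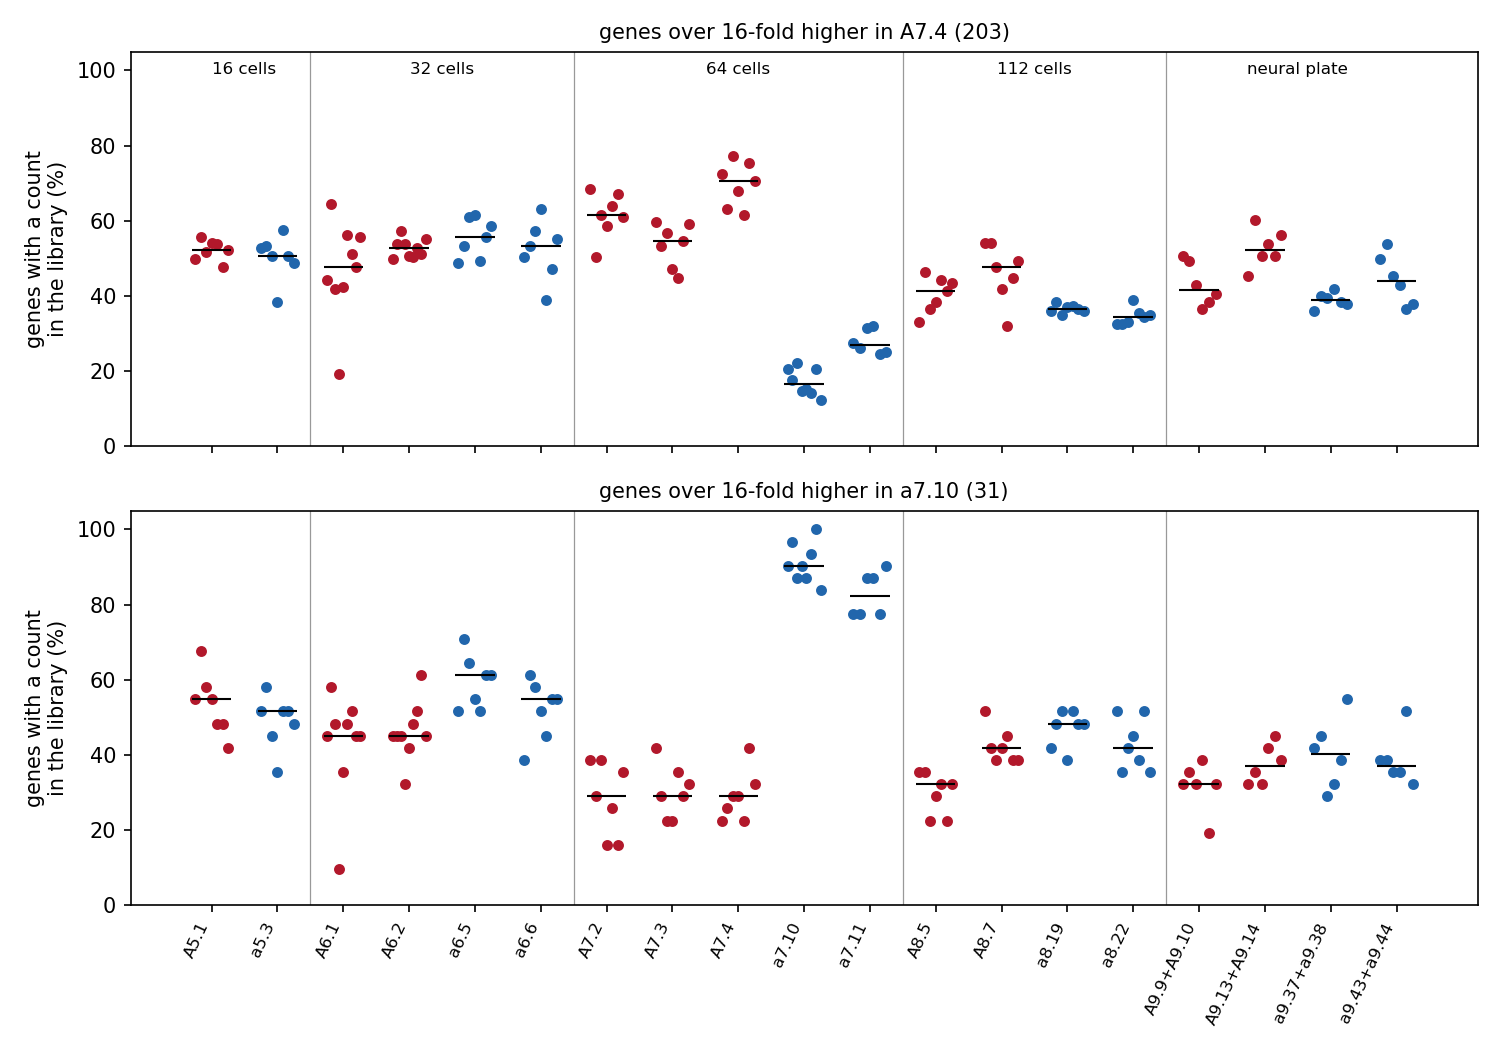
The vertical axes give the percent of genes with at least 1 count in a library, for the 203 genes over 16-fold higher in A7.4 (top) and the 31 genes over 16-fold higher in a7.10 (bottom), with 1 point per library, a line at the group median, A-line cells in red and a-line cells in blue. In the top panel a7.10 (12.3 to 22.2%) and a7.11 (24.6 to 32.0%) lie below their mother cells a6.5 (48.8 to 61.6%) and a6.6 (38.9 to 63.1%). The 203 genes were chosen for low levels in a7.10.

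Many of these genes were scarce at the 16-cell stage. Of the 203, 117 (57.6%) averaged below 1 CPM in both A5.1 and a5.3, against 12.2% of all genes tested. Of the 31 genes over 16-fold higher in a7.10, 14 (45.2%) did so. Of the 414 genes up to 2-fold higher in A7.4, 0 did. These shares were not matched for level. The median in A7.4 was 4.74 CPM for the 203 genes, 231 CPM for the 414 and 40.4 CPM over all genes tested. The shares alone therefore do not date the onset of expression.

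The same 2 lineages were then read in their partner cells, in other libraries of the same embryos that shared the fit and its low-count filter. Of 1335 genes that differed between A7.3 and a7.11 (11.5%), 763 were higher in A7.3 (6.55%) and 572 higher in a7.11 (4.91%). Of the 794 genes higher in A7.4, 748 (94.2%) were also higher in A7.3 than in a7.11, a sign that 51% of all genes tested had. 409 of them (51.5%) passed the threshold in that direction and 1 in the other. Of the 450 genes higher in a7.10, 432 (96.0%) were also higher in a7.11, against 48.9% of all genes tested. 267 of them (59.3%) passed the threshold in that direction and 1 in the other. The shared calls made up 53.6% of the A7.3 list and 46.7% of the a7.11 list. The median log2 fold change of the 794 genes was 0.96 between A7.4 and a7.10 and 0.79 between A7.3 and a7.11. For the 450 genes the medians were -1.05 and -0.89.

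A7.2 against a7.11, which uses the same a7.11 libraries, gave similar values. There 1100 genes differed (9.45%), 672 of them higher in A7.2 (5.77%) and 428 higher in a7.11 (3.68%). 353 of the 794 genes (44.5%) passed the threshold in the A-line direction and 4 in the other. 205 of the 450 genes (45.6%) passed it in the a-line direction and 1 in the other. By class, the agreement in sign between A7.3 and a7.11 was 402 of 414 for genes up to 2-fold higher in A7.4, 137 of 137 for 2- to 4-fold, 37 of 40 for 4- to 16-fold and 172 of 203 above 16-fold. The low-count filter was applied over all 5 cell types, so genes sparse in A7.4 could enter through A7.3 or A7.2. Such entry favours this sign, so the agreement among sparse genes is not independent support. The partner cells came from the same embryos as A7.4 and a7.10. At any level, the agreement therefore cannot tell lineage from embryo set. The 794 genes summed to 13.1 to 14.9% of the CPM in A7.3, 13.1 to 14.6% in A7.2 and 8.55 to 10.2% in a7.11. The calls shared by A7.4 against a7.10 and A7.3 against a7.11 numbered 676 in all, 437 without A7.4 embryo 5 and 407 with right-side libraries alone.

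**Figure D4:**
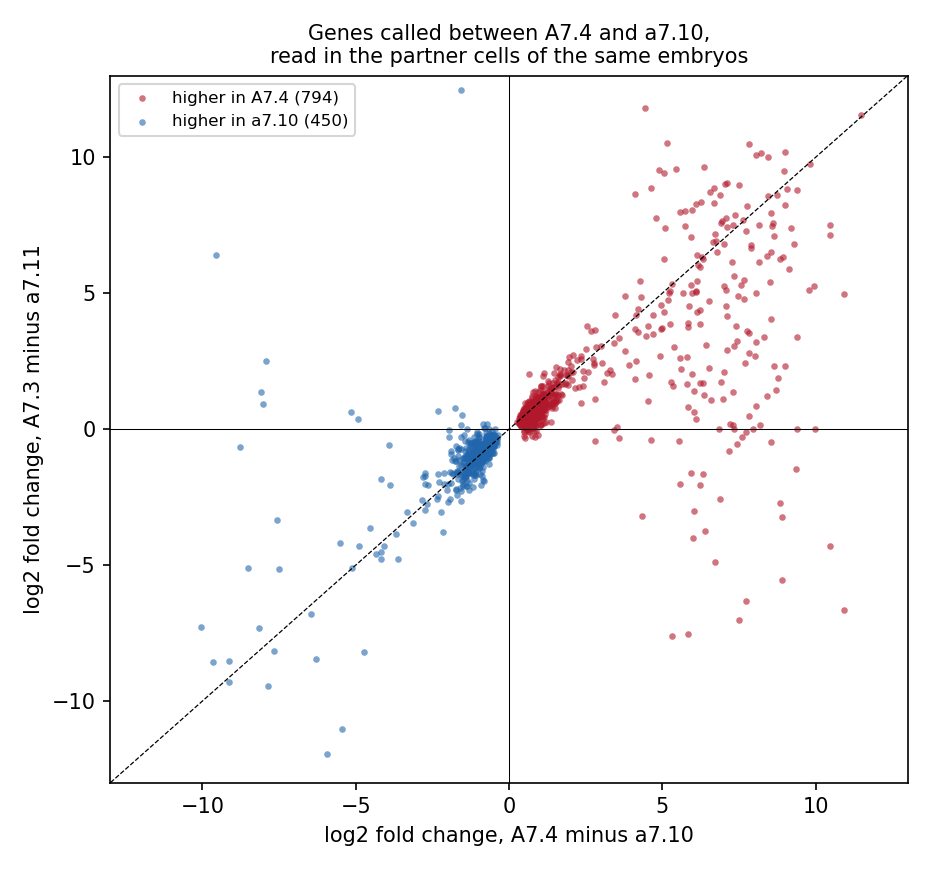
The horizontal axis is the log2 fold change A7.4 minus a7.10 and the vertical axis the log2 fold change A7.3 minus a7.11, for the 794 genes higher in A7.4 (red) and the 450 higher in a7.10 (blue), with a dashed line of equal change. Of the red genes 748 lie above 0 on the vertical axis and of the blue genes 432 below 0, with the widest scatter among genes over 16-fold.

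Whether the difference between A7.4 and a7.10 exceeded that of their partner cells was tested directly, as the change from A7.3 to A7.4 minus the change from a7.11 to a7.10. 24 genes passed the threshold (0.206%), 5 with a higher value on the A7.4 side (0.0429%) and 19 with a lower one (0.163%), and 665 had an unadjusted p below 0.05. 3 of the 24 were among the 1244 genes that differed between A7.4 and a7.10. The median SE of this contrast was 0.34 on the log2 scale over the 794 genes, 0.36 over the 450 and 0.52 over all genes tested. A missed threshold here does not show equal values. Without A7.4 embryo 3 the count was 44, and without A7.3 embryo 4 it was 13. It was 115 with DESeq2, 38 with limma voom and 11 with right-side libraries. With the embryo within its lineage as a replicate block it was 25, of which 15 were among the 24.

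KH.C11.328 and KH.C2.994 were the genes higher in a7.10 that also passed this test. KH.C11.328 stood at 8.51, 23.6, 7.80 and 15 CPM in A7.4 embryos 2 to 5, and its lowest, median and highest values in a7.10 were 21.2, 37.2 and 77.6 CPM. The ranges overlapped at A7.4 embryo 3 (log2 fold change -1.57 ± 0.40 SE, adjusted p = 0.0144). The partner cells went the opposite way: A7.3 ran from 60.0 to 83.0 CPM, and a7.11 had no count in any of its 6 embryos. No A7.4 embryo reached the lowest value of its sister A7.3, and every a7.10 embryo had counts where a7.11 had none. The fitted interaction was -14.06 ± 0.89 (SE, adjusted p = 6.78e-10), a value that depends on the small count added by the fit because a7.11 was at 0. The call between A7.4 and a7.10 was lost without A7.4 embryo 2 or embryo 4 and with right-side libraries alone. Over the 8 alternatives in the processing its adjusted p ran from 0.00139 to 0.238, and without 1 embryo it reached 0.0577.

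KH.C2.994 had its lowest mean of the 5 cell types in A7.4. It stood at 18.3, 68.7, 28.1 and 32.7 CPM in A7.4 embryos 2 to 5 and at 92.7 to 226 CPM in a7.10, with a median of 141, so the groups did not overlap (log2 fold change -1.95 ± 0.30 SE, adjusted p = 8.39e-05). The ranges of A7.3 and a7.11 overlapped, at 112 ± 15 CPM (SD, n = 4) and 115 ± 31.7 CPM (SD, n = 6), and A7.2 averaged 49.6 CPM, within the A7.4 range. The interaction was -1.92 ± 0.39 (SE, adjusted p = 0.0266). It missed the threshold in 8 of 22 fits that left out 1 embryo, with an adjusted p of up to 0.0976. These were the fits without A7.4 embryo 2, 4 or 5, A7.3 embryo 3, 4 or 5, and a7.11 embryo 4 or 7.

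Embryos of a group were not equally alike. Over all genes tested, log2(CPM + 1) of A7.4 embryos correlated across genes with r of 0.898 to 0.961, and the lowest values were those of embryo 3 (0.898 to 0.910). The 8 a7.10 embryos lay at 0.916 to 0.936 with each other. A7.4 and a7.10 embryos lay at 0.880 to 0.910, which overlaps the A7.4 range. The left and the right A7.4 cell of an embryo correlated at 0.901 in embryo 3, 0.946 in embryo 4 and 0.934 in embryo 5. Over the 7198 genes of at least 20 CPM, the median SD of log2 CPM was 0.33 in A7.4 and 0.37 in a7.10. Genes are not independent replicates, and these values describe the libraries.

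The genes of the 64-cell difference were read at the other stages between the ancestors and descendants of A7.4 and a7.10, which came from other embryos. At 16 cells, 15 genes separated A5.1 from a5.3 (0.151%). Of the 3 higher in A5.1 (0.0302%), 2 were among the 794, and of the 12 higher in a5.3 (0.121%), 1 was among the 450. Of the 651 genes of the first list that were tested there, 472 (72.5%) had the sign of the 64-cell difference, against 50.7% of all genes tested. Of the 427 of the second list it was 218 (51.1%), against 49.3%.

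At 32 cells, 1135 genes separated A6.2 from a6.5 (10.1%), where 5.05% of the genes tested had the higher level in A6.2 and 5.06% had it in a6.5. 51 of the 794 passed the threshold in the same direction, 6.42% of that list and 8.99% of the A6.2 list, and 44 passed it in the opposite direction. 45 of the 450 passed it in the same direction, 10.0% of that list and 7.92% of the a6.5 list, and 29 in the opposite direction. The shares with the 64-cell sign were 53.3% and 52.5%, against 49.9% and 50.1% of all genes tested. The 1135 calls were made without the A6.1 library of embryo 5, left side, which has few detected genes. With it 53 genes passed.

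At 112 cells, 61 genes separated A8.7 from a8.19 (0.538%), of which 37 (0.326%) had the higher level in A8.7 and 24 (0.212%) in a8.19. 13 of the 794 passed in the same direction, 35.1% of the A8.7 list and 1.64% of the 794, and 3 in the opposite direction. 3 of the 450 passed in the same direction, 12.5% of the a8.19 list and 0.667% of the 450, and 1 in the opposite direction. The 64-cell sign was held by 60.9% and 61.6% of the tested members, against 50.4% and 49.6% of all genes tested. In the neural plate embryos, 13 genes separated A9.13+A9.14, which came from 2 embryos, from a9.37+a9.38 (0.11%). Of the 3 higher in A9.13+A9.14 (0.0254%), 1 was among the 794, and of the 10 higher in a9.37+a9.38 (0.0846%), 2 were among the 450. The 64-cell sign was held there by 50.7% and 44.2% of the tested members, against 50.6% and 49.3% of all genes tested.

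At 32, 64 and 112 cells alike, 3 genes were higher in the A line and 1 in the a line. The shares of genes called at these stages were 5.05, 6.82 and 0.326% for the A line. For the a line they were 5.06, 3.86 and 0.212%. The 32-cell calls are those made without the A6.1 library of embryo 5, and these genes were not read with it. Of the 3, KH.C12.14 and KH.C8.396 had the highest level at 64 cells. KH.C12.14 was even over the A7.4 embryos, at 44.2, 46.5, 50.0 and 48.9 CPM, and in a7.10 it had no count in 5 embryos and at most 2.91 CPM (log2 fold change 6.53 ± 1.17 SE, adjusted p = 0.000571). Its A-line mean was 17.5 ± 8.26 CPM in A6.2 (SD, n = 6) and 116 ± 55.7 CPM in A8.7 (SD, n = 5). The a-line mean was 0.225 ± 0.311 CPM in a6.5 (SD, n = 5) and 8.52 ± 8.09 CPM in a8.19 (SD, n = 4). Later, in neural plate embryos, the A9.13+A9.14 samples had 156 and 345 CPM and those of a9.37+a9.38 ran from 39.6 to 159 CPM, so the ranges overlapped (adjusted p = 1).

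KH.C8.396 stood at 19.2, 41.1, 14.6 and 33.8 CPM in A7.4 embryos 2 to 5. In a7.10 it had no count in 7 embryos and 0.423 CPM in embryo 7, 3 counts in all. The ratio of pooled counts was 593, with a 95% counting interval of 202 to 2877 (log2 fold change 8.83 ± 1.07 SE, adjusted p = 5.16e-06). It had 24.7 ± 9.12 CPM in A6.2 (SD, n = 6) against 0.475 ± 0.797 CPM in a6.5 (SD, n = 5). In A8.7 it had 16.9 ± 12.7 CPM (SD, n = 5), and in a8.19 no count in 4 embryos. At 16 cells it had 4.91 ± 3.96 CPM in A5.1 against 0.119 ± 0.172 CPM in a5.3 (SD, n = 5 each), which missed the threshold (adjusted p = 0.0537). In neural plate embryos the means were 13.2 CPM (A9.13+A9.14, n = 2) and 2.13 CPM (a9.37+a9.38, n = 3), with an adjusted p of 1.

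KH.C2.994 was the gene lower in the A line at these 3 stages. Its mean was 27.5 ± 3.60 CPM in A6.2 against 92.7 ± 16.9 CPM in a6.5 (adjusted p = 8.52e-05), and 29.7 ± 16.8 CPM in A8.7 against 146 ± 27.8 CPM in a8.19 (adjusted p = 0.0108). At 16 cells A5.1 had 41.4 ± 14.5 CPM and a5.3 had 51.7 ± 6.52 CPM, with overlapping ranges (adjusted p = 0.565). In neural plate embryos the means were 94.4 CPM (A9.13+A9.14, n = 2) and 161 CPM (a9.37+a9.38, n = 3), again with overlapping ranges and with an adjusted p of 1.

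Of the genes with the largest differences at 64 cells, KH.C4.341, KH.C5.591, KH.C4.456 and KH.C2.114 passed the threshold at no other stage where they were tested. KH.C2.114, 113 CPM in the median a7.10 embryo, averaged 0.664 CPM in A6.2 against 5.34 CPM in a6.5. The means were 10.1 CPM (A8.7) and 12.6 CPM (a8.19) at 112 cells, and 112 CPM (A9.13+A9.14) and 57.7 CPM (a9.37+a9.38) at the neural plate stage. None of these 3 differences passed the threshold (adjusted p = 0.121, 0.977 and 0.774). KH.C5.591 averaged 0.0245 CPM in A6.2, 1.30 CPM in a6.5 and 0.202 CPM in A8.7, had no count in a8.19, and in neural plate embryos averaged 13.2 CPM (A9.13+A9.14) and 14.4 CPM (a9.37+a9.38). KH.C4.341 averaged 37.6 CPM in A8.7 against 0.0383 CPM in a8.19, and 1 of the 5 A8.7 embryos had no count (adjusted p = 0.108). In neural plate embryos it averaged 60.0 CPM (A9.13+A9.14, n = 2) and 1.96 CPM (a9.37+a9.38, n = 3), with an adjusted p of 1. KH.C4.456 missed the threshold in 16-cell, 32-cell and neural plate embryos (adjusted p = 0.645, 0.401 and 1).

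**Figure D5:**
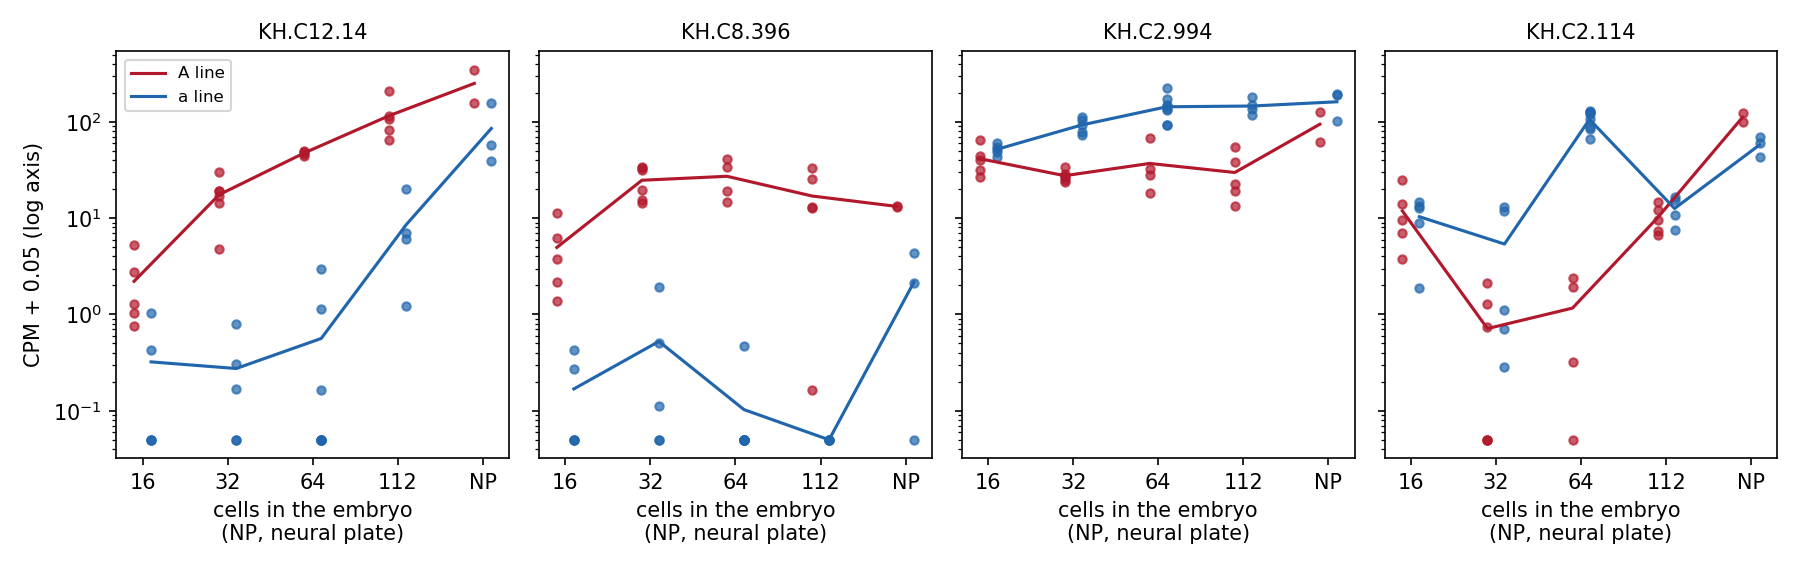
Each panel gives 1 gene, with CPM plus 0.05 on a log axis and the stage along the horizontal axis (NP, neural plate), for the A-line cells A5.1, A6.2, A7.4, A8.7 and A9.13+A9.14 (red) and the a-line cells a5.3, a6.5, a7.10, a8.19 and a9.37+a9.38 (blue), with 1 point per embryo and a line through the means. KH.C12.14, KH.C8.396 and KH.C2.994 keep their order from 32 to 112 cells, while the lines of KH.C2.114 are far apart at 64 cells and close at 112 cells, at 10.1 and 12.6 CPM.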

How the data were processed

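Whole-number read counts per gene model were deposited by the authors for all libraries in 1 table, without normalization. The submitters' processing notes name STAR 2.7.10a as a tool. Which build, annotation, counter and strand setting were used is not given in the sources used here, so paralogs and overlapping genes are uncertain. Each library came from amplified cDNA of 1 dissected cell, per the labels' protocols, with no molecular identifiers, so intervals and floors cover counting error only. All columns matched a sample by name (0 unmatched), and no libraries of A7.4 or a7.10 agreed within sampling noise (lowest chi-square per gene 29.3 and 38.6). p-values rest on the spread between embryos within cell types, estimated over all cell types of a fit. The main fit treated sums of different cell types from the same embryo as independent.

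Counts of the same cell type and embryo were summed. The 5 cell types of the 64-cell stage were fitted together with edgeR 4.0.16 (R 4.3.3): TMM, filterByExpr, robust quasi-likelihood tests and Benjamini-Hochberg adjustment over all genes tested, with a threshold of 0.05. Adjusted p-values are from this test where no other tool is given. The other stages had their own fits. DESeq2 1.42.0 and limma 3.58.1 (voom) served as alternatives, beside RLE size factors, no low-count filter, right-side libraries, a fit of A7.4 and a7.10 alone, a replicate block and leaving out each embryo. Left-side A7.4 libraries and thinning to 2000000 counts were added after seeing the data. In counts simulated for A7.4 against a7.10 (11308 genes), the test called 31.9% of 2-fold and 68.8% of 4-fold changes, and 6 of its 102 calls were unchanged genes. These counts were drawn independently for each embryo sum, with the spread estimated from these data. The simulation held no embryo shared between cell types and no difference between embryo sets. Its shares are therefore not error rates of the real comparison.

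Residuals of same-numbered A7.4 and a7.10 embryos correlated with a mean r of -0.0128, those of A7.4 and A7.3 with 0.227 and those of a7.10 and a7.11 with 0.0628. A7.4 and A7.3 share embryos per the labels, and so do a7.10 and a7.11. Genes named for the main comparison passed the threshold, averaged at least 20 CPM in the group with the higher level, did not overlap between groups, and were ranked by fold. For the interaction they had at least 5 CPM in the highest group and also differed between A7.4 and a7.10, with no condition on overlap, and for the stages they differed alike at 32, 64 and 112 cells, ranked by level at 64 cells. At most 2 per direction were named. The comparisons, genes and gene classes were chosen with earlier results of these data known.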

Additional observations from a re-analysis of the deposited data

Results flagged for a closer look

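In 9 of the 37 sets of a gene and a 64-cell group that hold 4 to 10 embryos, 1 embryo stood apart from the rest by Dixon's criterion. Its rate of about 1 set in 20 by chance holds for normally distributed values. Where all other embryos are at 0, any count is flagged, so that rate does not apply to these sets. All are genes at or near 0 in the other embryos of the group. KH.C4.341 had 8.73 CPM in A7.2 embryo 2 and 0.820 CPM in a7.11 embryo 6. KH.C5.591 had 0.581 CPM in a7.10 embryo 3 and 2.75 CPM in a7.11 embryo 4. KH.C4.456 had 3.68 CPM in A7.3 embryo 2. KH.C12.14 had 2.91 CPM in a7.10 embryo 6 and 11.8 CPM in a7.11 embryo 5. KH.C8.396 had 0.423 CPM in a7.10 embryo 7 and 2.23 CPM in a7.11 embryo 6. No A7.4 embryo was among them. KH.C5.591, KH.C12.14 and KH.C8.396 kept their call between A7.4 and a7.10 without the a7.10 embryo given here.

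The change from partner to neural side differed between the lineages for KH.C11.328, by -14.06 on the log2 scale, and for KH.C2.994, by -1.92, both with a lower value on the A7.4 side. The first kept its call in all 22 fits without 1 embryo, and the second lost it in 8 of them.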

How the results depend on the processing

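Of 1244 genes between A7.4 and a7.10, RLE size factors gave 1220, no low-count filter 1217, DESeq2 1535, limma voom 1623, a fit of both groups alone 1136, left-side A7.4 libraries 1188 and right-side libraries 810. Leaving out 1 embryo gave 722 to 1155. The share of calls higher in A7.4 was 63.8%, but 53.7% with DESeq2 and 54.0% with both groups alone. With the embryo number as a replicate block, although equal numbers are not stated to mark 1 embryo across lineages, 885 genes passed, 498 and 387. It changed no call of a named gene. Calls shared with A7.3 against a7.11 numbered 676, 407 with right-side libraries and 437 to 654 without 1 embryo. The 24 interaction calls became 115 with DESeq2, 38 with limma voom, 11 with right-side libraries, 25 with the embryo within its lineage as a replicate block (15 shared with the 24) and 13 to 44 without 1 embryo. At 32 cells, 1135 calls became 53 with the A6.1 library of embryo 5. Of the 203 genes, 93 averaged below 0.5 CPM at 16 cells and 147 below 2 CPM. No named gene changed direction under the alternatives in which it was tested. KH.C4.341 with right-side libraries and KH.C5.591 with both groups alone did not pass the low-count filter. Right-side libraries ended the call of KH.C11.328 (adjusted p = 0.238) and the interaction of KH.C2.994 (adjusted p = 0.0668, range 0.000447 to 0.0668 over 6 alternatives). The causes were not tested. Thinning lowered the median share of the 203 genes with a count from 16.5 to 9.85% in a7.10 and from 70.4 to 65.5% in A7.4. The more than 16-fold class was not formed again at equal depth, so its dependence on depth was not tested.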
